A study of Mus musculus with 24 samples.

Results

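The CREB family is a set of leucine zipper transcription factors that bind the cAMP response element. Its members here were Creb1, Crem, Atf1, Atf2, Atf4, Creb3l1 and Creb3l3, with the coactivator Crtc1. They were chosen by gene name: every probe that the scanner files assign to one of these 8 genes was taken. That gave 21 probes for 7 genes among 41174 probes and 27827 gene names on the array, and 20 of the 21 were bright enough to test. Crtc1 enters the nucleus and joins CREB once it is dephosphorylated. The array does not represent Crtc1 under its symbol, its older names or its RefSeq accession, so its mRNA was not analysed here.

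Hippocampal RNA of 24 C57Bl/6 mice was hybridised to 24 one-colour arrays, 1 mouse per array, in 6 groups of 4. Controls aged 3 or 16 months were handled and saw no training. Fear-conditioned mice aged 3 or 16 months explored a chamber for 3 min and then received a foot-shock of 0.7 mA for 2 s. Context mice aged 3 months saw the chamber with no shock, and shock-context mice aged 3 months were shocked on entry and explored afterwards. Hippocampi of trained mice were taken 1 h later. Control and fear RNA was on 4 slides, with 1 array of each group on each. RNA of context and shock-context mice was on other slides, and its file headers name a different genome build. Each of these sets is called a run here, and scan dates were not compared. A difference between runs cannot be told apart from a difference between those groups.

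Creb1, Crem and Atf1 are close relatives. In neurons, kinases that follow cAMP and calcium signals phosphorylate Creb1, which then recruits coactivators and switches on activity-regulated genes. Formation of long-term memory in the hippocampus is known to need this step. Crem yields both activators and the inducible repressor ICER, Atf2 answers to stress kinases and pairs with Jun proteins, and Atf4 carries the integrated stress response. Creb3l1 and Creb3l3 are made as membrane proteins of the endoplasmic reticulum and are released by cleavage. The arrays measured mRNA, not phosphorylation. In tissue RNA, fewer cells of a type and less RNA per cell cannot be told apart.

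The probes are 60 bases long, and several lie in sequence that the family shares. The first 2 below come from the coding end of the leucine zipper and are shown to make that likeness visible. Capitals mark the bases that are identical when the Creb1 and Atf1 probes are aligned without gaps, 35 of 46 aligned bases or 76.1%. The Creb1 probe lies at chr1:64643886-64643945, plus strand, and the Atf1 probe at chr15:100090310-100090369, plus strand, both in mm9.
Creb1 A_52_P174396: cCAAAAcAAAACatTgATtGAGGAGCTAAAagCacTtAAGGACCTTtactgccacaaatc
Atf1 A_52_P228081: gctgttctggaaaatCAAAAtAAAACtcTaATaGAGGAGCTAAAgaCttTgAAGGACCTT
The matching Crem probe, A_52_P391103, is identical to the Creb1 probe at 44 of 57 aligned bases (77.2%) and to the Atf1 probe at 31 of 43 (72.1%). How far transcripts of one gene bind the probe of another was not tested. The next 2 probes, from coding sequence of Atf2 (chr2:73666533-73666592, minus strand) and Atf4 (chr15:80087079-80087138, plus strand), are shown because results below rest on them, and they were not aligned with the others.
Atf2 A_52_P130596: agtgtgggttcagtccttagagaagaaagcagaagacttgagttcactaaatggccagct
Atf4 A_52_P139727: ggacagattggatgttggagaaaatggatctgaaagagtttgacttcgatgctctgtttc

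Levels are log2 of the processed signal minus the array's 75th percentile of that signal, so that 0 is the 75th percentile, and they compare arrays for 1 probe and not probes with each other. Changes are differences of group means on this scale with the standard error (SE) of a limma fit of all 24 arrays, and a probe was called at a Benjamini-Hochberg adjusted p under 0.05 over all probes. The 75th percentile of signal ranged from 757 to 2137 in the control and fear arrays and from 3101 to 8369 in the other run. In the same order, 86.2% to 93.8% and 75.1% to 81.4% of probes were well above background. All 20 markers of hippocampal excitatory neurons were well above background on every array. So were all astrocyte, oligodendrocyte, microglia, interneuron, and vascular and blood cell markers, and detection therefore does not tell tissues apart. Young fear arrays stood farthest apart in their choroid plexus markers, the epithelium that borders the hippocampus. Of 28 such genes, 27 were lower than in young controls and none was higher. Their summed level, in units of the 75th percentile, was 26.0 to 35.7 in young fear, 139 to 215 in young controls, 142 to 228 in old controls and 129 to 157 in old fear. Thalamus markers moved the other way: 15 of 26 were higher and 1 lower in young fear, with sums of 75.3 to 84.4 against 53.6 to 60.8 in young controls, and 7 were higher and none lower in old fear than in old controls. The sums of other marker lists also separated young fear from young controls. They were 282 to 301 against 374 to 412 for hippocampal excitatory neurons, 156 to 171 against 203 to 235 for astrocytes, 33.1 to 36.5 against 44.4 to 58.8 for microglia and 49.7 to 66.4 against 78.1 to 106 for vascular and blood cells. Oligodendrocyte and myelin markers were the other way, at 179 to 196 against 144 to 154, and interneuron sums overlapped. Sums weigh the brightest genes most. The median change by gene was 0.01 for hippocampal excitatory neurons, 0.02 for astrocytes, -0.31 for microglia and -0.25 for vascular and blood cells. It was 0.42 for oligodendrocytes and myelin and 0.20 for interneurons, against -0.34 for all genes. The part of these shifts in the results that follow was not tested, except where a value is given.

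In 3-month-old mice, fear conditioning came with less Crem and Creb3l3 signal and less signal of the brightest Creb1 and Atf1 probes. It also came with more signal of 1 Atf2 probe. Of the 20 probes tested, 8 fell and 1 rose, and they belong to 5 genes. Over all probes tested, 44.6% were called in this comparison, 17.2% higher and 27.5% lower, so the members were called about as often as probes in general. The median of all probes was itself lower by 0.27 on this scale (a change of -0.27), and the median of the 20 members was -0.33. Under the other scalings the median of all probes was -0.50 (normexp background correction), -0.13 (median scaling), -0.08 (quantile normalization) and -0.04 (the authors' deposited values).

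**Figure D1:**
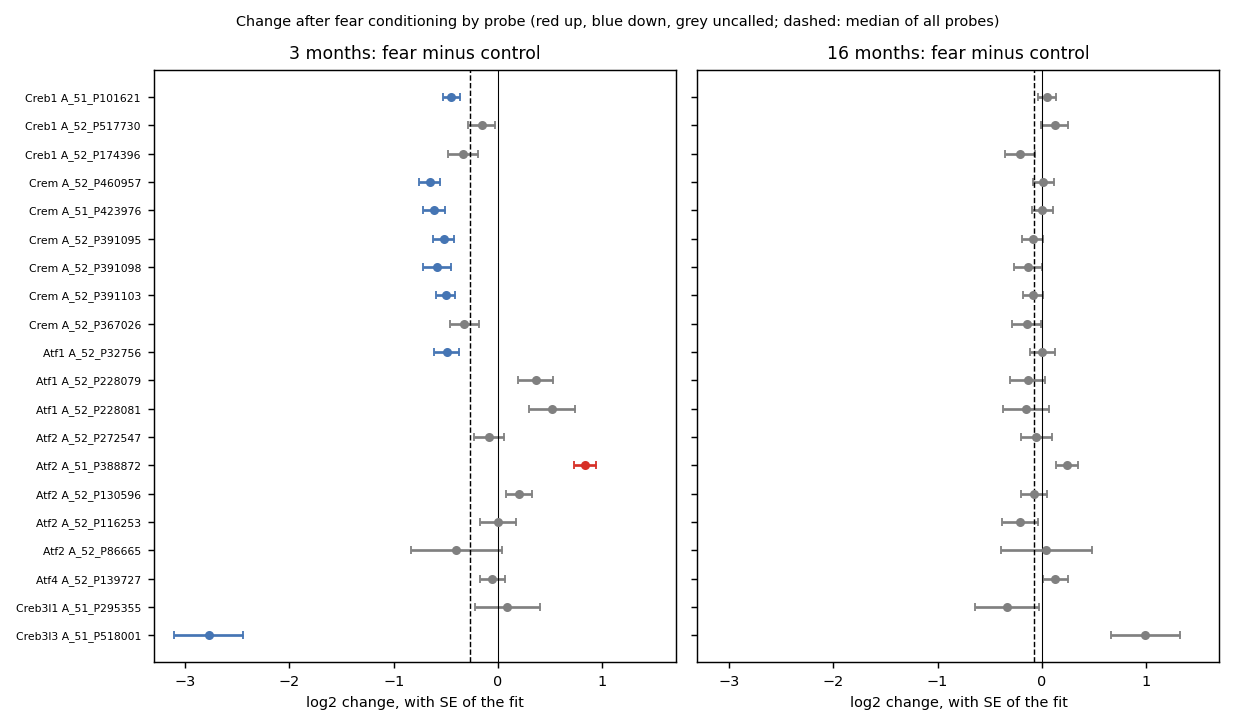
Log2 change from control to fear conditioning for the 20 tested probes at 3 months (left) and 16 months (right). Points are differences of group means with the SE of the fit, red and blue mark probes called higher or lower, grey marks uncalled probes, and the dashed line is the median of all probes. At 3 months 9 probes are coloured, with Creb3l3 farthest out at -2.77, and at 16 months none is.

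Creb1 is the founding activator of the family. Its brightest probe, A_51_P101621 (chr1:64648229-64648288, plus strand), is spotted 10 times on the array and had levels of -0.12, -0.09, 0.12 and 0.19 in young controls and -0.47, -0.49, -0.39 and -0.34 in young fear. The groups did not overlap, and all 4 young fear arrays were the lowest of the run. The change was -0.45 (SE 0.09, limma adjusted p = 2.43e-04), a 1.36-fold fall, or -0.17 beyond the median of all probes. It was negative on each of the 4 slides, from -0.53 to -0.35, and it was called under every alternative setting and with any 1 array left out.

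The other Creb1 probes lie upstream of it, and A_52_P174396 starts 4343 bases before it. Both gave low levels, between -4.70 and -3.57, and neither was called at 3 months. A_52_P174396 changed by -0.34 (SE 0.14, limma adjusted p = 0.0588) and A_52_P517730 (chr1:64644633-64644692) by -0.16 (SE 0.13, limma adjusted p = 0.324). Without the second young control array, A_52_P174396 was called at -0.41. The fall in Creb1 thus rests on 1 of its 3 probes. A_52_P517730 was higher on 2 slides and lower on 2, and it lay 0.12 above the median change of all probes.

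In 16-month-old mice the same bright Creb1 probe had levels of 0.08, 0.17, -0.14 and -0.14 in controls and -0.01, 0.04, 0.00 and 0.14 after fear conditioning. The groups overlapped, and the change was 0.05 (SE 0.09, limma adjusted p = 0.829). The difference between the responses at the 2 ages was itself tested. It came to 0.50 (SE 0.12, limma adjusted p = 0.00414), or 0.32 beyond the median of all probes, and was positive on all 4 slides. That call was lost under normexp background correction (0.45, adjusted p = 0.0601). By group mean ± SD over 4 arrays, old fear (0.04 ± 0.07), young control (0.03 ± 0.15) and old control (-0.01 ± 0.16) were within their spread of each other, and young fear (-0.42 ± 0.07) was below them.

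**Figure D2:**
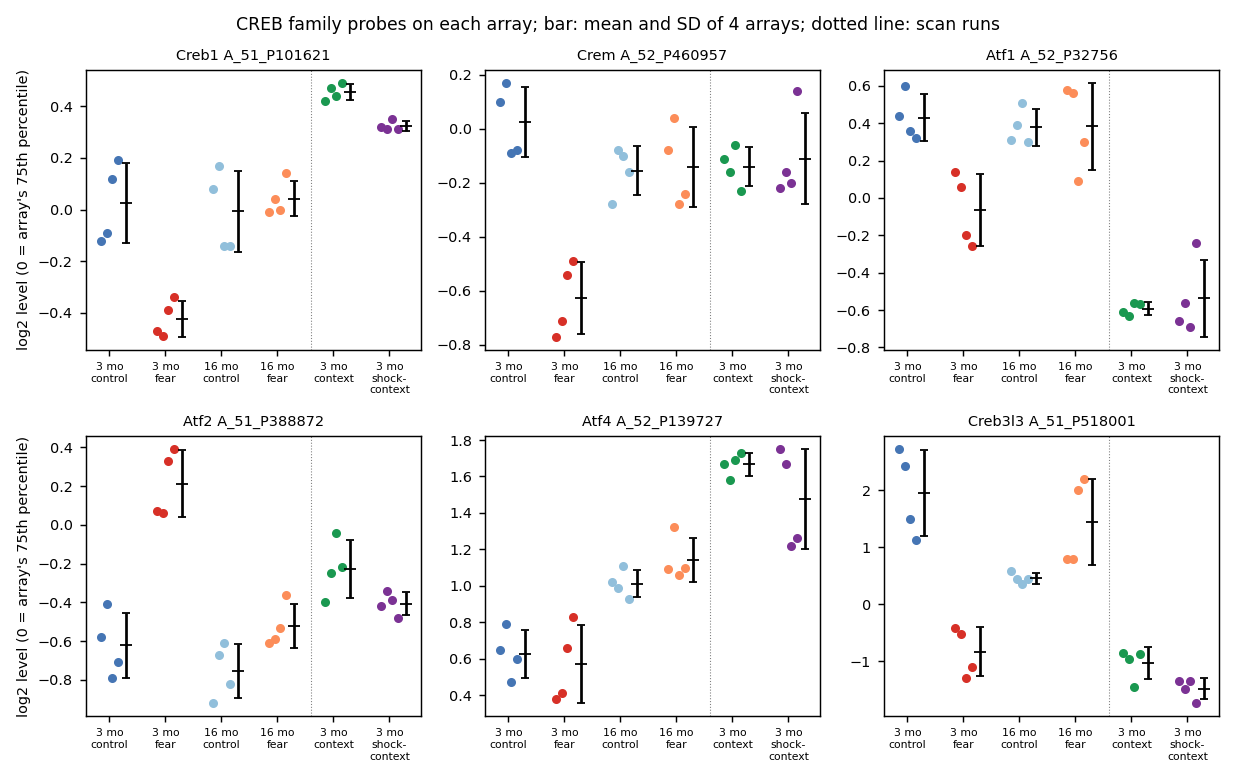
Log2 level of 1 probe for each of 6 genes on each of 24 arrays, with 0 at the array's 75th percentile. Points are arrays, bars the mean and SD of 4 arrays, and the dotted line separates the runs. Young fear lies below young control for Creb1, Crem, Atf1 and Creb3l3 and above it for the Atf2 probe, while old fear and old control overlap for Creb1, Crem and Atf1.

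Crem gave the most even picture. It codes for repressors as well as activators, and a promoter inside the gene produces ICER. Its 6 probes lie on the minus strand of chromosome 18, and 5 of them, which gave clear signal on all arrays, sit in the last part of the gene with 938 bases between the starts of the outermost pair. All 5 fell in young fear, by 0.50 to 0.65 on the log2 scale. The brightest, A_52_P460957 (chr18:3267671-3267730), had levels of 0.10, 0.17, -0.09 and -0.08 in young controls and -0.77, -0.71, -0.54 and -0.49 in young fear. No young fear array reached the lowest control. Its change was -0.65 (SE 0.10, limma adjusted p = 2.34e-05), a 1.57-fold fall.

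The probes beside it behaved alike. A_51_P423976 (chr18:3267049-3267108) changed by -0.61 (SE 0.10, limma adjusted p = 5.59e-05). A_52_P391095, A_52_P391098 and A_52_P391103 changed by -0.52, -0.58 and -0.50, with adjusted p of 3.66e-04, 0.00129 and 1.96e-04. All 5 were lower in young fear on each of the 4 slides, and each call held under every alternative in which the probe was tested and with any 1 array left out. Since the 5 probes share the same stretch of transcript, they are not 5 independent readings of the gene. Beyond the median of all probes their falls were 0.23 to 0.38.

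The sixth Crem probe, A_52_P367026, spans a splice junction (chr18:3295393-3299197 from end to end) and reads the upstream part of the gene. It was dim, at -5.95, -5.99, -5.99 and -6.05 in young controls and -6.13, -6.26, -6.46 and -6.42 in young fear. The groups did not overlap, and the change of -0.32 (SE 0.14) had a limma adjusted p of 0.0661. It was not well above background on any shock-context array or on 2 of 4 context arrays, so its shock-context level is only a bound. With the slide as a block the same change was called (adjusted p = 0.0375), as it was without the first young fear array (-0.39).

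At 16 months none of the Crem probes was called, with changes from -0.15 to 0.01. A_52_P460957 stood at -0.28, -0.08, -0.10 and -0.16 in old controls and at -0.08, 0.04, -0.28 and -0.24 in old fear, which overlap. The response at 16 months exceeded that at 3 months by 0.67 (SE 0.14, limma adjusted p = 0.00149) for this probe and by 0.62 (adjusted p = 0.00310) for A_51_P423976. The same difference was 0.43 for A_52_P391095 and 0.42 for A_52_P391103 (adjusted p = 0.0349 and 0.0248). Both of these calls were lost under median scaling, normexp, the deposited values, the slide block and the random block of array pairs, and for A_52_P391095 also when only the control and fear arrays were fitted. Leaving out 1 array ended the call of A_52_P391095 in 7 cases: young control 1 and 2, old control 2, young fear 1 and 2, and old fear 1 and 2. It ended that of A_52_P391103 in 4 cases, for young control, old control, young fear or old fear array 1. The lowest differences then were 0.36 and 0.37. A_52_P391098, uncalled at 0.45 (adjusted p = 0.0877), was called at 0.58 without old control array 2. The median of all probes was 0.18 for this age difference. Beyond it, the called Crem probes, in the order above, differed by 0.49, 0.44, 0.26 and 0.24.

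**Figure D3:**
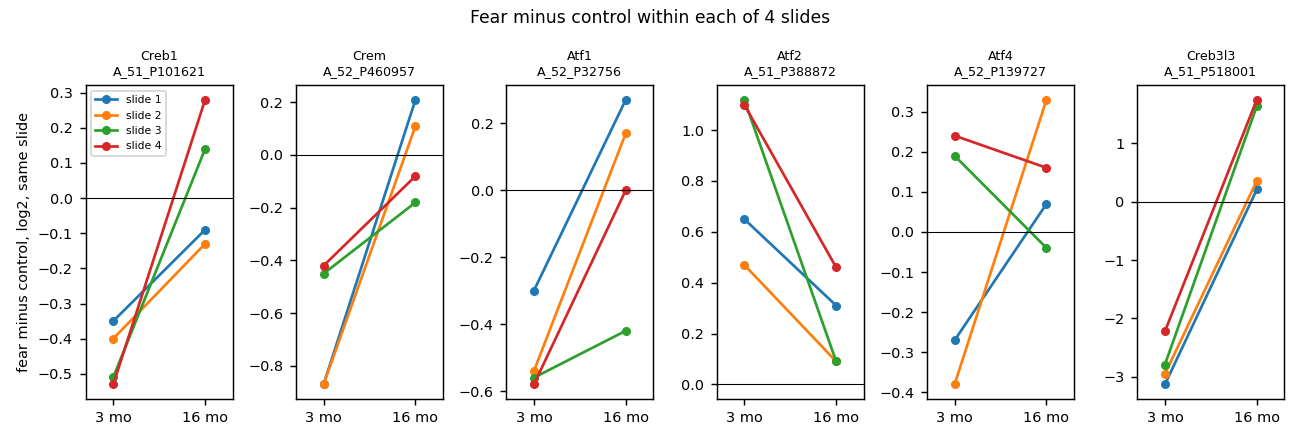
Fear minus control, in log2, within each of the 4 slides that hold 1 array of every control and fear group, at 3 and 16 months. Each line is a slide and each panel a probe with its own scale. For Creb1, Crem, Atf1 and Creb3l3 the 3-month difference is negative on all 4 slides, and Creb3l3 is positive at 16 months on all 4, whereas the signs for Atf4 differ between slides.

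Atf1 is a Creb1 relative that pairs with it, and its probes disagreed. A_52_P32756 (chr15:100091253-100091312), the brightest and 943 bases downstream of the zipper probe shown above, had levels of 0.44, 0.60, 0.36 and 0.32 in young controls and 0.14, 0.06, -0.20 and -0.26 in young fear. It was lower in every young fear array, by 0.49 on average (a change of -0.49, SE 0.12, limma adjusted p = 0.00236). Under median scaling the change was -0.35 and missed the threshold (adjusted p = 0.0823).

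The other 2 Atf1 probes had the opposite sign. The zipper probe A_52_P228081 stood at -3.36, -2.87, -3.22 and -3.35 in young controls and at -2.75, -2.61, -2.72 and -2.66 in young fear. The groups did not overlap, and the change was 0.52 (SE 0.22, limma adjusted p = 0.0661). A_52_P228079 (chr15:100090547-100090606) changed by 0.36 (SE 0.17, adjusted p = 0.0833). Under quantile normalization, median scaling and the deposited values both rises passed the threshold, at 0.46 to 0.79, and the zipper probe also passed with the slide as a block (adjusted p = 0.0143), with only the compared arrays (adjusted p = 0.0152) and without the second young control array (0.63). A_52_P228079 also passed without the third young control array (0.49). A single direction for Atf1 mRNA after training therefore cannot be given from these probes.

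At 16 months the Atf1 changes were 0.00 for the bright probe and -0.14 and -0.15 for the dim ones, none called. The ages differed for the bright probe by 0.50 (SE 0.17, limma adjusted p = 0.0371), or 0.32 beyond the median of all probes. That call was lost under median scaling, normexp, array pairs as a random block and the fit of only the compared arrays. It was also lost when any 1 of 8 arrays was left out: young control 1 or 2, old control 1 or 4, young fear 3 or 4, and old fear 1 or 2, each leaving 0.43 to 0.49. For the dim probes the ages differed by -0.50 and -0.67 (adjusted p = 0.134 and 0.133). The second of these passed in the deposited values and with the slide as a block (adjusted p = 0.0385 and 0.0389), and the first without young control array 3 (-0.63).

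Atf2 is activated by stress kinases and has 6 probes, of which A_52_P379037 was not well above background on any array and was not tested. One probe carried a large rise. A_51_P388872 (chr2:73655411-73655470, minus strand) had levels of -0.58, -0.41, -0.79 and -0.71 in young controls and 0.07, 0.06, 0.33 and 0.39 in young fear. All young fear arrays were above all other 20 arrays. The change was 0.83 (SE 0.11, limma adjusted p = 2.58e-06), a 1.78-fold rise, against a median of all probes that fell.

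A second probe lies only 302 bases upstream in the transcript. A_52_P272547 (chr2:73655713-73655772) gave 1.46, 1.27, 2.17 and 1.55 in young controls and 1.60, 1.49, 1.68 and 1.34 in young fear. These overlapped, and the change was -0.09 (SE 0.15, limma adjusted p = 0.635). The coding probe A_52_P130596, shown above, changed by 0.20 (SE 0.13, adjusted p = 0.193), and A_52_P116253 (chr2:73684290-73684349) by less than 0.01 (SE 0.17, adjusted p = 0.991). The Atf2 rise was thus carried by the probe nearest the end of the gene and by no other at this setting. Under median scaling, and without the third young control array, A_52_P130596 was also called (0.34 and 0.32). A_52_P86665 was well above background on 5 of 24 arrays, and its change of -0.40 (SE 0.44) was not called.

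At 16 months A_51_P388872 went from -0.92, -0.67, -0.61 and -0.82 in controls to -0.61, -0.59, -0.53 and -0.36 in fear. The change was 0.24 (SE 0.11), positive on 4 of 4 slides, with a limma adjusted p of 0.347. The old response was below the young by 0.60 (a difference of -0.60, SE 0.15, adjusted p = 0.00552), a call lost under normexp (adjusted p = 0.0692).

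Atf4 drives amino acid and stress genes, and its protein output is set largely at translation. It did not pass the threshold at either age: levels were 0.65, 0.79, 0.47 and 0.60 in young controls and 0.38, 0.41, 0.66 and 0.83 in young fear, and 1.02, 0.99, 1.11 and 0.93 in old controls and 1.09, 1.32, 1.06 and 1.10 in old fear. The changes were -0.06 (SE 0.12, limma adjusted p = 0.716) and 0.13 (SE 0.12, adjusted p = 0.663). Every old array was above every young array of these 4 groups. Among fear-conditioned mice the age difference was 0.57 (SE 0.12, limma adjusted p = 7.45e-04), a 1.48-fold higher signal. Among controls it was 0.38, positive on 4 of 4 slides, with an adjusted p of 0.219.

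Creb3l1, a membrane-bound factor of secretory cells, had levels between -3.32 and -1.98 in the control and fear arrays. Its probe spans a junction at chr2:91823548-91826335, minus strand. The change was 0.09 (SE 0.31) at 3 months and -0.33 (SE 0.31) at 16 months, with limma adjusted p of 0.826 and 0.658. The spread between arrays of a group, up to 0.56 (SD) in old controls, was larger than either change.

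Creb3l3 moved most. It is best known as a liver and gut factor of fasting and lipid metabolism, and its single probe (chr10:80547319-80547378, minus strand) was well above background on all 24 arrays. Levels were 2.72, 2.43, 1.50 and 1.13 in young controls and -0.41, -0.52, -1.29 and -1.09 in young fear. The lowest control exceeded the highest young fear array. The change was -2.77 (SE 0.33, limma adjusted p = 1.05e-06), a 6.83-fold fall.

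In older mice the direction was the other way. Old controls had 0.59, 0.44, 0.36 and 0.44 and old fear arrays 0.80, 0.80, 2.00 and 2.19, which do not overlap. The change of 0.99 (SE 0.33) was not called (limma adjusted p = 0.215), and arrays 3 and 4 of old fear were far above arrays 1 and 2. In young control and young fear, arrays 3 and 4 were instead below arrays 1 and 2. The 2 responses differed by 3.76 (SE 0.47, adjusted p = 8.97e-06), which passed the threshold in every alternative and with any 1 array left out. In order of mean ± SD, young control (1.95 ± 0.75) and old fear (1.45 ± 0.75) overlapped, old control (0.46 ± 0.10) lay below both, and young fear (-0.83 ± 0.43) was the lowest of these 4 groups.

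Creb3l3 moved with the choroid plexus markers across part of the arrays only. Young fear was low in both. In old controls the marker sum was as high as in young controls while Creb3l3 was lower. From old controls to old fear the median marker sum went from 201 to 145, with overlapping ranges. Creb3l3 changed the other way there, by 0.99, which was not called. Context and shock-context arrays had Creb3l3 levels of -1.73 to -0.85, with marker sums of 93.6 to 166 and 106 to 203. The run difference cannot be told apart from the group there.

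**Figure D4:**
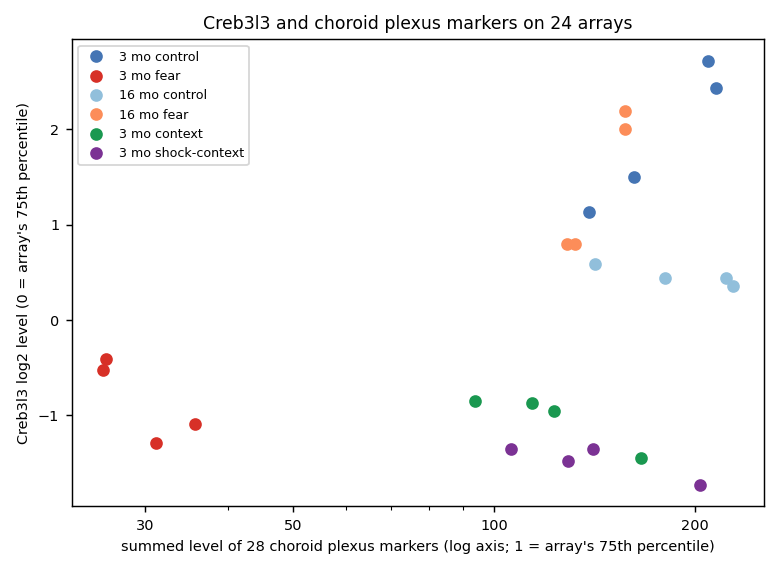
Creb3l3 log2 level (0 is the array's 75th percentile) against the summed level of 28 choroid plexus markers (log axis, in units of the 75th percentile) on 24 arrays, coloured by group. Young fear is at the left with sums of 26.0 to 35.7, and context and shock-context arrays combine sums of 93.6 to 203 with Creb3l3 levels below -0.8.

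Set against the young response, fear conditioning at 16 months called none of the 20 probes. Over all probes tested, 0.126% were called (49 of 38768), and 2 members had an unadjusted p under 0.05. None of the 9 alternatives, nor any array left out, gave a called member. The test of the age difference in response called 8 members, 7 higher and 1 lower, where 25.9% of all probes were called, 14.3% higher and 11.5% lower. The higher ones were the bright Creb1 and Atf1 probes, 4 Crem probes and Creb3l3, and the lower one was Atf2 A_51_P388872. The median of all probes was 0.18 in this comparison.

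Few members separated untrained mice by age. Between old and young controls 1 of 20 members was called, where 0.547% of all probes were. This was Creb3l3, lower in old controls by 1.49 (a change of -1.49, SE 0.33, limma adjusted p = 0.0409). The call was lost in 5 of 9 alternatives (adjusted p from 0.0621 to 0.413), with the slide as a block among them (adjusted p = 0.209). It was also lost without young control array 1 or 2 or any 1 old control array, at changes of -1.53 to -1.23.

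More members were called between the ages after training. Between old and young fear arrays 10 of 20 members were called, 7 higher and 3 lower, where 39.9% of all probes were called, 22.9% higher and 17.0% lower. Creb1 A_51_P101621 was higher in old fear by 0.47, Crem probes by 0.34 to 0.53 in 3 of 6 cases, the bright Atf1 probe by 0.44, Atf4 by 0.57 and Creb3l3 by 2.28. The median of all probes was 0.21. Beyond it, the differences were 0.26 for Creb1, 0.13 to 0.32 for Crem and 0.24 for the bright Atf1 probe. The dim Atf1 probes (-0.56 and -0.59) and Atf2 A_51_P388872 (-0.73) were lower. Crem A_52_P391103 lost its call under median scaling and the deposited values, the bright Atf1 probe under median scaling and Atf1 A_52_P228079 under normexp. Atf2 A_52_P130596 gained one under quantile normalization and median scaling (-0.36 and -0.39) and without young fear array 3 or old fear array 2, Atf2 A_52_P116253 under quantile normalization (-0.46), and Crem A_52_P391095 without old fear array 4 (0.31). The zipper probe of Atf1 lost its call under normexp, where its sign turned, under the random block of array pairs, and without any 1 young fear array or old fear array 3 or 4 (-0.61 to -0.45). The comparison shares its young fear arrays with that of young fear and young control, so the 2 are not independent.

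Context and shock-context exposure were not separated by any member at this threshold. None of the 20 members was called and none had an unadjusted p under 0.05, while 0% of all probes were called and 2188 had an unadjusted p under 0.05. Member differences ran from -0.27 to 0.45. Creb1 A_51_P101621, for one, had 0.42, 0.47, 0.44 and 0.49 in context and 0.32, 0.31, 0.35 and 0.31 in shock-context arrays. These 2 sets did not overlap, but the difference of 0.13 (SE 0.09) had a limma adjusted p of 0.927.

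Against the other run, most probes were called. Between young fear and the mean of context and shock-context, 12 members were called (7 higher, 5 lower) where 70.2% of all probes were. Between that mean and young controls, 14 were called (3 higher, 11 lower) where 71.6% of all probes were. Creb1 A_51_P101621 was lower in young fear than in that mean (-0.81) and higher in the mean than in young controls (0.37). Run and group cannot be told apart in these values, and several signs turned with the scaling.

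The genes around CREB were read through 4 lists, each gene by its brightest probe. The lists were chosen with earlier results of these data known, so their counts and medians are a description and not an independent test. The lists overlap. Ddit3, Atf3, Atf5, Cebpb and Cebpg are in both the ATF4 target list and the list of related factors. Nfil3 is both a related factor and a CREB target, and Sik1 both a kinase and a CREB target. In young fear, 13.2% of 26176 genes were called higher and 30.4% lower, with a median change of -0.34. Among 37 kinases, cyclases, phosphodiesterases and phosphatases that act on CREB, 19 rose and 8 fell, and the median change was 0.20. Adcy1, a calcium-stimulated adenylyl cyclase, rose by 1.05 (SE 0.13, limma adjusted p = 1.37e-06), Prkar1a, a regulatory subunit of protein kinase A, by 0.97 (adjusted p = 6.32e-07), and Pde4b, which degrades cAMP, by 1.24 (adjusted p = 1.96e-06). Camk4, a nuclear kinase of Creb1, fell (-1.64, SE 0.16, adjusted p = 8.90e-08). The median stayed positive under each of the other scalings, between 0.13 and 0.52.

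Among 30 CREB target genes, 12 rose and 5 fell, with a median of 0.31. Fos, an immediate early gene, rose by 2.41 (SE 0.29, limma adjusted p = 1.29e-06), Scg2, a secretory granule protein, by 1.07 (adjusted p = 1.62e-07) and the clock gene Per1 by 0.81 (adjusted p = 5.03e-06). Pdyn, the dynorphin precursor of granule cells, fell (-1.21, SE 0.14, adjusted p = 9.38e-07). The median was positive under each scaling, from 0.21 to 0.54.

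Of 30 ATF4 target genes 1 rose and 11 fell, where 13.2% of all genes were called higher and 30.4% lower. The list's median was -0.27 against -0.34 for all genes. Asns, which makes asparagine, changed by -0.93 (SE 0.16, limma adjusted p = 7.54e-05), Psph of serine synthesis by -0.81 (adjusted p = 1.88e-05), the stress factor Ddit3 by -0.72 (adjusted p = 3.70e-07) and the translation repressor Eif4ebp1 by -0.57 (adjusted p = 3.41e-05). Under the deposited values the list's median was 0.02, so its sign depends on the scaling. Of 23 related leucine zipper and CRTC genes, Ddit3 among them, 3 rose and 9 fell, against the same shares of all genes, with a median of -0.30. Atf6b, a stress sensor of the endoplasmic reticulum, rose by 0.89 (adjusted p = 1.49e-06), while Cebpd (-0.80, adjusted p = 1.67e-05) and Creb3l2 (-0.65, adjusted p = 2.98e-05) fell. Markers of other cell types shifted in the same arrays, as given above, and their part in these lists was not tested. Under normexp, where 5.13% of genes were called higher and 14.4% lower and the median of all genes was -0.53, the counts were lower: 9 rose and 2 fell in the kinase list, 8 and 3 among CREB targets, 0 and 7 among ATF4 targets and 2 and 6 among related factors.

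**Figure D5:**
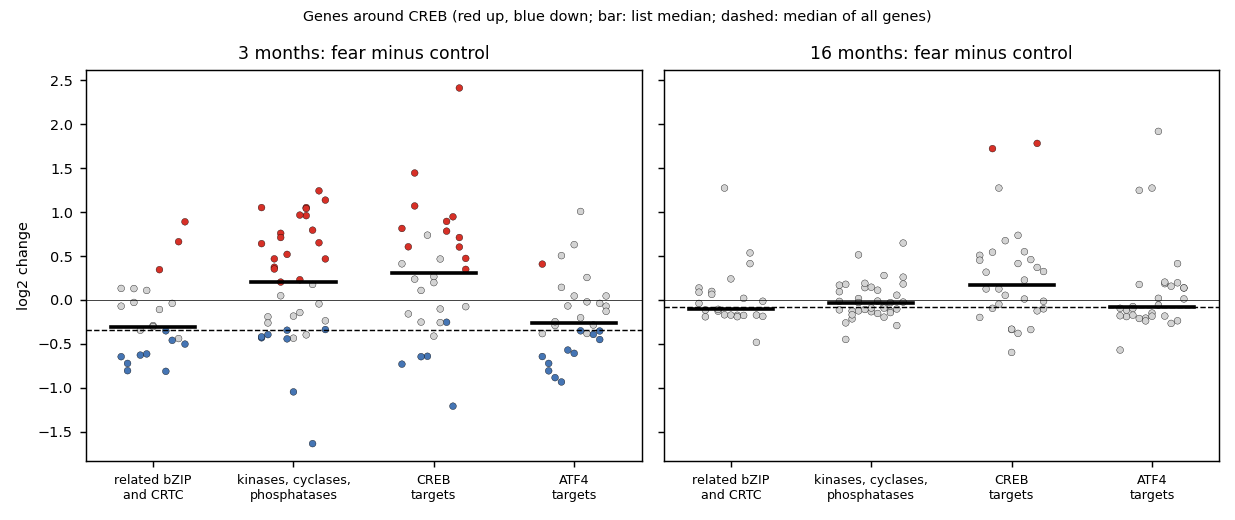
Log2 change from control to fear conditioning for the genes of 4 lists at 3 months (left) and 16 months (right). Each point is a gene, red and blue mark genes called higher or lower, the bar is the list's median and the dashed line the median of all genes. At 3 months the kinase and CREB target lists have medians of 0.20 and 0.31 against -0.34 for all genes. At 16 months 2 CREB targets are called. The lists were chosen with earlier results of these data known.

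At 16 months 0.138% of genes were called. In the lists this left 2 CREB targets, Fos (1.78, SE 0.29, limma adjusted p = 0.0123) and Egr2 (1.72, SE 0.31, adjusted p = 0.0275), both immediate early genes. Neither was called under normexp or with the slide as a block (adjusted p = 0.137 and 0.118), and Egr2 was also lost with a random block of array pairs and in the fit of the compared arrays alone. Fos lost its call without old fear array 3 or 4, and Egr2 without any 1 old fear array or old control array 3 or 4. For the difference between the ages' responses, 16.1% of genes were called higher and 8.13% lower. In the kinase list 5 were higher and 13 lower, among CREB targets 3 and 4, among ATF4 targets 9 and 1, and among related factors 5 and 3.

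The genes whose levels followed a member most closely over the 16 control and fear arrays were found by Pearson correlation among 14940 genes, as a description. The 16 arrays share groups and slides, so these values carry the group differences within them. Creb1 was followed by Pot1b (0.97), Cdh8 (0.96) and Mxra7 (0.96), and Crem by Krtcap2 (0.97), Pfdn4 (0.96) and Ostc (0.96). Atf1 A_52_P32756 was followed by Cnrip1, Fmr1 and Actr3 (0.96 to 0.97), and Atf2 A_52_P272547 by Qtrt1 (0.86) and Ccnd2 (0.85). Atf4 was followed by Mthfd2 (0.95), an ATF4 target, then Cxcl10 and Cdh4 (both 0.89). Creb3l1 was followed by Nbeal2, Zfp57 and Lce1b (0.89 to 0.90), and Creb3l3 by Nfya (0.97), Ppp1r14c (0.96) and 2810459M11Rik (0.94).

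The members' own promoters were searched for the cAMP response element in the 250 bases before each start, on both strands, in RefSeq's GRCm38.p6. Of the members, 6 genes, Crtc1 among them, had 7 windows, while Crem and Creb3l1 had none in the table. The full element TGACGTCA was in none of the 7 windows and in 1.5% of 32851 windows of all genes. The core TGACG, which the full element contains, was in 3 of the 7 (Atf1, Atf4 and 1 of 2 for Creb3l3) and in 17.8% of all. In the CREB target list, chosen for known regulation by CREB, the full element was in 13.9% and the core in 61.1% of 36 windows.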

How the data were processed

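Per the labels, total RNA of 1 hippocampus sample per mouse was labelled with Cy3 and hybridised to Agilent 44K arrays. Spots were read with Agilent Feature Extraction 9.5.3.1, per the file headers, and the authors deposited its background-subtracted signal intensity per spot, unscaled between arrays. The submitters' processing notes name limma. The authors' deposited table holds values taken from their range to be log2, which follow each array's mean spot signal in rank (Spearman 0.9997 or more) and share a median near 8.57, and served as an alternative.

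Here log2 of that signal was centred on the 75th percentile of its array. Control spots and spots marked as outliers were dropped, repeated spots were averaged per probe, and 38768 probes with signal well above background on 4 or more of the 24 arrays were tested. Group means of all 24 arrays were fitted in limma 3.58.1 (R 4.3.3, statmod 1.5.0; 18 residual degrees of freedom) and 8 comparisons tested by lmFit and eBayes (two-sided), and p-values were adjusted over all kept probes after Benjamini and Hochberg. Positions are mm9, per the headers of the second run; those of the first run name an older build. The members and lists were chosen with earlier results of these data known. All member probes are named; from each list of related genes, the genes of smallest adjusted p are named, up to 4 in young fear against young control and up to 2 elsewhere, in comparisons within a run. The 8 marker lists were choroid plexus, thalamus, hippocampal excitatory neurons, astrocytes, oligodendrocytes and myelin, microglia, interneurons, and endothelial, mural and blood cells. In young fear against young control, higher and lower counts for the lists not given with the results were 4 and 7 of 20 hippocampal excitatory neuron, 2 and 5 of 15 astrocyte, 8 and 3 of 15 oligodendrocyte, 2 and 6 of 14 microglia, 4 and 3 of 13 interneuron, and 4 and 6 of 13 vascular and blood markers. Sik3, Vgf, Crh and Kcnj13 had no probe by name.

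On simulated data for young fear against young control (38358 probes), limma called 31 of 50 probes raised by 1 and 34 of 50 lowered by 1 on the log2 scale, 8 of 50 raised and 9 of 50 lowered by 0.5, and 4 of 38158 unchanged ones. The simulated noise was independent between arrays and only these few probes were changed, while 44.6% of real probes were called. These rates were therefore not shown to carry over to the real comparison. The number of arrays limits the precision. Alternatives were quantile normalization, median scaling, normexp with an offset of 50, the deposited values, no filter, 1 probe per gene, the slide as replicate block, neighbouring array pairs as a random block (consensus correlation 0.37), a fit of the compared arrays alone, and leaving out each array in turn. One gene among those most like a member is not reported here.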

Additional observations from a re-analysis of the deposited data

Results flagged for a closer look

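In 120 groups of 4 arrays, 11 held 1 array far from the other 3 by Dixon's criterion, which chance gives in about 1 group of 20. In shock-context these were Crem A_52_P460957 on array 4 (0.14), Atf1 A_52_P228081 on array 1 (-3.73), and on array 4 Atf2 A_52_P272547 (1.24) and A_52_P116253 (-3.65). In context they were Crem A_52_P367026 on array 2 (-5.81) and Creb3l3 on array 3 (-1.45). In old fear they were, on array 2, Atf2 A_52_P272547 (1.26) and A_52_P130596 (-1.94) and Atf4 (1.32), and on array 3 Creb3l1 (-2.56). In old controls it was Crem A_52_P391098 on array 2 (-0.17).

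The response to fear conditioning differed between ages, in limma's test of the difference itself, for 8 member probes. The old response minus the young response was 0.50 for Creb1 A_51_P101621, 0.67, 0.62, 0.43 and 0.42 for 4 Crem probes, 0.50 for Atf1 A_52_P32756, -0.60 for Atf2 A_51_P388872 and 3.76 for Creb3l3. For Creb3l3 the changes were -2.77 at 3 months and 0.99 at 16 months. Among the named genes of the lists the same difference was 0.61 for Ddit3 (adjusted p = 4.14e-04), -0.59 for Shmt2, -1.17 for Scg2, 0.87 for Pdyn, 1.51 for Camk4, -0.75 for Rps6ka4 and -1.08 for Atf6b. For Ddit3, Shmt2 and Pdyn the call was lost under normexp.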

How the results depend on the processing

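In young fear against young control, the called probes of Creb1, Crem, Atf2 and Creb3l3 stayed past the threshold in each of the 9 alternatives that tested them, and the number of called members there was 9 to 11 wherever all probes were tested. With 1 probe per gene, 7 members were tested, without the Atf2 probe that rose, and 4 were called there, 4 for the age difference in response, 5 in old against young fear and 5 in each comparison across runs. All-probe counts were then 11321, 6245 and 9912 for young fear against control, the age difference and old against young fear. For the age difference, called members were 5 under median scaling, 2 under normexp and 5 with the random block. In old against young controls, called members were 0 under median scaling, normexp, the slide block, the random block and only the compared arrays. All probes called in that comparison were 13 under normexp, 98 with the slide block, 29 with the random block and 14 with only the compared arrays. In old fear against old control they were 155, 0, 22, 10 and 2 under quantile, normexp, the slide block, the random block and only the compared arrays. Under quantile, 2 probes were called between context and shock-context. Under normexp, 7025, 2646, 7463 and 14862 probes were called in young fear against control, the age difference, old against young fear and young fear against the other run, and the random block gave 6601 for the age difference.

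Each of 4 slides held 1 array of every control and fear group. Of 24 same-numbered pairs of arrays, which share a slide, 15 correlated above 0.1 (range -0.42 to 0.65). On slide 1 the pairs ranged from 0.35 to 0.58. The tests given with the results did not use the slide or treat mice of equal number as pairs, so they leave a shared slide effect out. With the slide as replicate block, 11 members were called in young fear against control (54.4% of all probes), 7 for the age difference (27.5%) and 10 in old against young fear (45.1%). Calls of named probes that it changed stand beside those results, and it changed no others. Within young fear, arrays 1 and 2 and arrays 3 and 4 were closest (median absolute difference 0.11 and 0.13, other pairs 0.21 to 0.31). The same pairs were closest in young control and old fear, but not in old control. The tests given with the results treat the arrays of a group as independent, and the random block of array pairs does not.

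Leaving out 1 array gave 9 to 11 called members in young fear against control, 0 to 0 in old fear against old control, 5 to 9 for the age difference, 0 to 1 in old against young controls, 9 to 11 in old against young fear, 0 to 0 between context and shock-context, 11 to 12 and 13 to 15 across runs. All-probe counts were 15101 to 17704, 9 to 120, 8830 to 10830, 83 to 310, 13949 to 14562, 0 to 1, 25444 to 27343 and 26591 to 27702 in that order.

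Signs turned across runs. For young fear against context and shock-context, Creb1 A_52_P174396 was -0.57 and Crem A_52_P367026 -1.29 under quantile, and -0.28 and -0.37 in the deposited values. For context and shock-context against young control, Creb1 A_52_P517730, A_52_P174396, Crem A_52_P367026 and Atf1 A_52_P228081 were 0.69, 0.52, 1.36 and 0.52 under quantile, and 0.34, 0.35, 0.35 and 0.43 in the deposited values, where Atf2 A_52_P86665 was 0.0026. Under median scaling Crem A_51_P423976, A_52_P391095 and A_52_P391103 and Atf2 A_52_P272547 were 0.13, 0.028, 0.32 and 0.28. Within a run, Atf1 A_52_P228081 turned in old against young fear under normexp (0.19). The cause was not tested. Signal over background limits Crem A_52_P367026 and Atf2 A_52_P86665.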
